A study of Mus musculus with 24 samples.

Results

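The transcripts of 10 genes that regulate energy metabolism were followed in mouse hearts after doxorubicin, hesperitin or both. They are the coactivator genes Ppargc1a, Ppargc1b and Perm1, the estrogen-related receptor genes Esrra, Esrrb and Esrrg, the receptor gene Ppara, the nuclear respiratory factor genes Nrf1 and Gabpa, and the mitochondrial transcription factor gene Tfam. They were chosen by symbol, with earlier results of these data known. All 10 were found among the 10393 genes of the table of 16 h. In the table of 72 h, with 7723 genes, 9 were found, and Nrf1 was not analysed there. All hearts came from mice of the genotype WT, and RNA was taken from heart tissue as a whole. The 4 groups of 16 h had 3 libraries each. One received vehicle (V) and another hesperitin, given daily at 10 mg/kg (H). The third had doxorubicin (DOX), dosed at 25 mg/kg, and the last the combination of the 2 compounds (DOXH). At 72 h, V and DOX with 3 libraries each were analysed, which makes 18 libraries of the 24 samples labelled, and the hesperitin groups of that time were not analysed here. Doxorubicin is an anthracycline used against tumours and known for its toxicity to heart muscle, and hesperitin (also spelled hesperetin) is a flavanone of citrus fruit. The labels do not state strain, sex, age, route or how many animals stand behind a library. The p-values therefore speak of the spread among libraries, which may be technical.

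PGC-1alpha and PGC-1beta, the products of Ppargc1a and Ppargc1b, bind no DNA themselves. They are recruited by receptors such as the estrogen-related receptors (ERR) and PPAR-alpha to switch on genes of fatty acid oxidation, the citric acid cycle and the respiratory chain. PERM1 is a muscle protein that acts with PGC-1alpha and ERR. NRF1 and GABPA raise the expression of nuclear genes for mitochondrial proteins, among them Tfam. Its product packs mitochondrial DNA and takes part in starting its transcription. The adult heart relies on this programme because it makes most of its ATP from fatty acids in mitochondria.

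Sequencing depth ran from 9255651 to 11074450 counts for the V, DOX and DOXH libraries of 16 h, 17664060 to 19869050 in H and 16607805 to 20587578 at 72 h. Levels are given as CPM, a gene's counts relative to the library's total after scaling with TMM factors (a correction for differences in library composition). A change is a log2 fold change with its standard error, tested by edgeR's quasi-likelihood test, and a gene is said to rise or fall only at a Benjamini-Hochberg adjusted p under 0.05 over all genes of the comparison. The 10 cardiomyocyte markers were in both tables and summed to 61268 to 69445 CPM in V at 16 h, and 0 of 5 skeletal muscle markers were found in either table. Of 7 adipocyte markers 1 was found at 16 h and 4 at 72 h.

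The promoter windows of the members were read for short known elements, and no link between these and the changes was tested. RefSeq windows (GRCm38.p6, 250 bases before to 50 after the start) were matched by symbol for 9 of the 10 genes. They were searched on both strands for AAGGTCA (the core bound by ERR), its 9-base form TCAAGGTCA, the 10-base element bound by NRF1 (in capitals in the Ppara sequence, where the A may be any base), CCGGAAG (an ETS core bound by GABP) and TGACGTCA (the cyclic AMP response element). The 9-base form contains the ERR core, so its matches overlap. Of 32851 windows, 4.72% held AAGGTCA, 0.423% TCAAGGTCA, 4.6% the NRF1 element, 8.86% CCGGAAG and 1.79% TGACGTCA. Matches are printed 5′ to 3′ on the strand of the gene, with the motif in capitals, for the 4 members that held one.
Perm1: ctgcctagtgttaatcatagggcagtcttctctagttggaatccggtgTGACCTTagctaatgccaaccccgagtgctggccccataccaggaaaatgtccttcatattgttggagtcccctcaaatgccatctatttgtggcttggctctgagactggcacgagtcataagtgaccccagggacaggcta
Ppara: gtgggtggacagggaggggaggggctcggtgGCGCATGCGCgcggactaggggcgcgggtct
Gabpa: gagggtaagtgCTTCCGGgtccctcagcta
Tfam: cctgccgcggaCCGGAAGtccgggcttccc
In the Perm1 window (shown: chr4:156215677-156215867, plus strand) the ERR core lies on the opposite strand, 202 bases before the start. In that of Ppara (chr15:85735714-85735775, plus strand) the NRF1 element reads the same on both strands, 31 bases before the start. The GABP cores lie 93 bases before the start of Gabpa (chr16:84835020-84835049, plus strand), on the opposite strand, and 47 before that of Tfam (chr10:71238073-71238102, minus strand), on the same strand, and both fall inside annotated exons. The windows of Ppargc1a, Esrra, Esrrb, Esrrg and Nrf1 held none of these letters. These distances are from the RefSeq start of each window. The gene positions of GENCODE given below start further upstream: Perm1 at 156215868, Ppara at 85734983, Gabpa at 84834925 and Tfam, on the minus strand, at 71238280. By those positions the sites of Ppara, Gabpa and Tfam lie inside the gene, and that of Perm1 lies before it. A match is a string of letters and not a measured site.

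In vehicle hearts the members differed widely in level. Per kilobase of the longest annotated transcript, V at 16 h held 75.2 ± 2.76 CPM of Perm1 (SD, n = 3), 38.8 ± 0.420 of Esrra and 20.0 ± 2.00 of Ppargc1a. Ppara followed at 12.1 ± 1.12 and Gabpa at 11.6 ± 0.548, then Esrrg at 9.30 ± 0.573, Tfam at 7.13 ± 0.412, Esrrb at 6.45 ± 0.722, Ppargc1b at 2.49 ± 0.345 and Nrf1 at 2.15 ± 0.106. The neighbours Ppara and Gabpa, Tfam and Esrrb, and Ppargc1b and Nrf1 lay within their spread of each other. Ppargc1b rested on 40 to 277 counts per library and Nrf1 on 43 to 165, so these genes carry more counting error than Perm1, with 1226 to 5625. In DOX at 16 h the lead of Perm1 was small: per kilobase it held 35.5 ± 5.88 CPM and Esrra 32.6 ± 3.85.

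**Figure D1:**
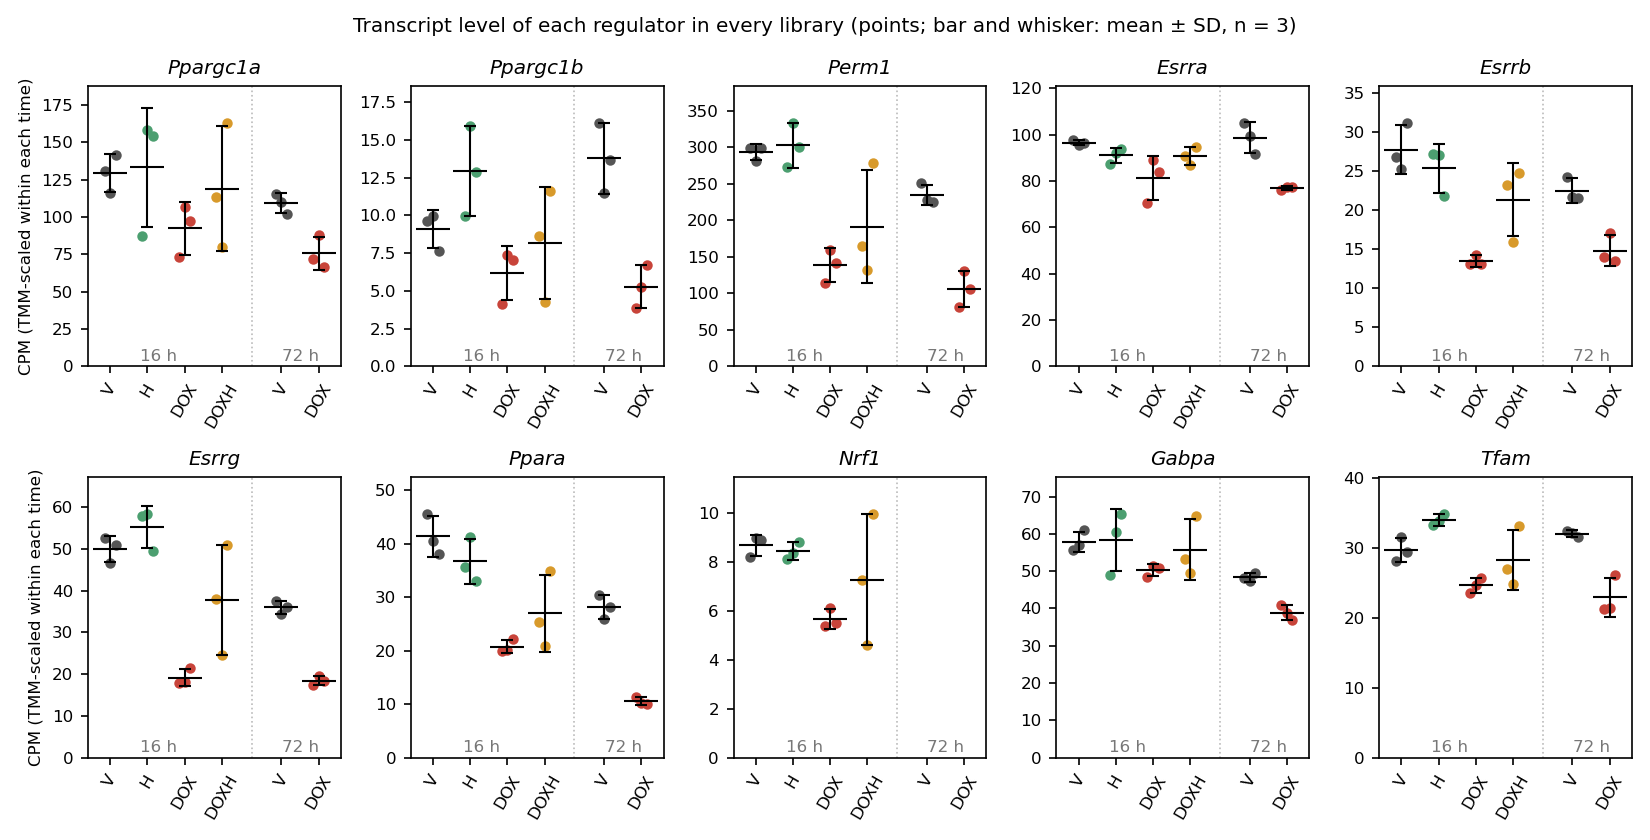
CPM of each of the 10 genes (y axis, linear from 0) in every library of the 4 groups of 16 h and the 2 groups of 72 h (x axis), with the mean ± SD of 3 libraries; levels on the 2 sides of the dotted line were scaled separately. For each of the 10 genes at 16 h and each of the 9 measured at 72 h, the 3 DOX libraries lie below the 3 V libraries.

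Doxorubicin against vehicle at 16 h asks how the regulators respond within a day of the drug. The ERR genes Esrrg and Esrrb, Ppara and the coactivator gene Perm1 fell to between 38.3% and 50.2% of V, Nrf1 fell to 65.3% and Esrra to 84.2%. Ppargc1a, Ppargc1b, Gabpa and Tfam were also lower in every DOX library than in every V library, but did not pass the test. Voom called Ppargc1a (adjusted p = 0.0365) and Tfam (0.0156) as well, and edgeR with only the groups compared called Ppargc1a (0.0314), Gabpa (0.0352) and Tfam (0.0241). In all, 6 of 10 members fell and none rose, where 32.3% of the 10393 genes tested changed and 16.6% fell. The groups did not overlap for any of the 10, against 56.4% of all genes, and the median change was -0.58 for the members and 0.02 for all genes. All 10 differences stayed negative with RLE factors (6 called), upper quartile factors (5, without Esrra) and library size alone (4, without Esrra and Nrf1). Over all genes, 1784, 1714 and 854 were called lower with these scalings. DESeq2 called 6 members, the fit of only the groups compared 9 and voom 8, with 5161 genes changed in all by voom. The totals over all genes for DESeq2 and for the fit of only the groups compared are not given here.

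The coactivator gene Ppargc1a (chromosome 5, 51454250 to 51567726, minus strand, GRCm38) read 131, 116 and 142 CPM in the V libraries and 72.8, 107 and 97.3 in DOX. The highest DOX library lay under the lowest V library, and the log2 fold change was -0.49 ± 0.27 (SE; edgeR adjusted p = 0.179; 95% interval -1.08 to 0.10). Ppargc1b, its relative with an overlapping set of targets, read 9.64, 9.97 and 7.64 CPM in V and 4.10, 7.36 and 7.06 in DOX. Here too the groups came close, at -0.55 ± 0.33 (edgeR adjusted p = 0.207). Perm1 (chromosome 4, 156215868 to 156221307, plus strand), whose window holds the ERR core printed above, was well apart: 299.8, 281 and 299 CPM in V against 114, 160 and 142 in DOX. It fell by 1.08 ± 0.23 on the log2 scale (edgeR adjusted p = 0.00669).

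The 3 ERR genes encode orphan receptors that bind the same element. Esrra (chromosome 19, 6910977 to 6921813, minus strand) moved least: 97.7, 95.6 and 96.2 CPM in V and 70.6, 89.1 and 84.04 in DOX. Its fall of 0.25 ± 0.09 on the log2 scale (edgeR adjusted p = 0.0451) lay at the threshold, and leaving out 1 of 8 of the 12 libraries ended the call, as did the replicate block (edgeR adjusted p = 0.0555). Esrrb (chromosome 12, 86361117 to 86521628, plus strand) read 26.8, 25.2 and 31.2 CPM in V and 13.0, 14.3 and 13.1 in DOX. The DOX libraries lay close together at about 48.5% of the V mean (log2 fold change -1.04 ± 0.16, edgeR adjusted p = 0.00256). Esrrg, the ERR of highly oxidative tissue (chromosome 1, 187608791 to 188214885, plus strand), changed most among the members, from 52.5, 46.5 and 50.9 CPM in V to 17.96, 18.05 and 21.4 in DOX. The log2 fold change was -1.38 ± 0.21 (edgeR adjusted p = 0.00253; 95% interval -1.83 to -0.93).

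Esrra made up more of the ERR transcripts in DOX than in V. Of the summed CPM per kilobase of the 3 ERR genes, Esrra was 71.1 ± 1.39% in V (69.8% to 72.6%) and 82.9 ± 1.32% in DOX at 16 h (81.6% to 84.3%; SD, n = 3). At 72 h it was 76.9 ± 0.912% in V and 81.8 ± 1.21% in DOX. The summed level of the 3 genes was 54.5 ± 1.37 CPM per kilobase in V and 39.3 ± 4.08 in DOX at 16 h. These shares are a description of the values above. Trmt112 overlaps Esrra on the opposite strand, and no source used here gives the strand setting of the counting. The expected counts of Esrra were whole except in 1 library, of DOX at 72 h (1515.97). Whether reads of the overlap were counted to the right gene was not tested.

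Ppara (chromosome 15, 85734983 to 85802819, plus strand) encodes the fatty acid receptor PPAR-alpha. It read 45.5, 40.5 and 38.0 CPM in V and 20.0, 20.1 and 22.2 in DOX, with a gap between the groups wider than either group. It fell by 0.99 ± 0.16 on the log2 scale (edgeR adjusted p = 0.00286).

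Among the factors that link nucleus and mitochondrion, Nrf1 (chromosome 6, 30047988 to 30153458, plus strand) read 8.20, 8.98 and 8.90 CPM in V and 5.38, 6.13 and 5.50 in DOX. Its fall of 0.61 ± 0.21 on the log2 scale (edgeR adjusted p = 0.0442) was called, but the call ended when 1 of 10 of the 12 libraries was left out and with the replicate block (edgeR adjusted p = 0.054). Gabpa (chromosome 16, 84834925 to 84863779, plus strand), the DNA-binding subunit of the factor also called NRF-2, read 55.6, 57.1 and 60.9 CPM in V and 48.5, 51.4 and 50.9 in DOX. Its difference of -0.20 ± 0.12 was not called (edgeR adjusted p = 0.201). Gabpa had expected counts that were not whole in every library, and Atp5j overlaps it on the opposite strand, so the reads counted to it are uncertain. Tfam (chromosome 10, 71225464 to 71238280, minus strand) read 28.2, 31.6 and 29.4 CPM in V and 23.5, 24.6 and 25.7 in DOX, a difference of -0.27 ± 0.10 (edgeR adjusted p = 0.0651) that missed the threshold narrowly.

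Cardiomyocyte markers moved in the same direction. All 10 fell at 16 h (median -0.78), and their summed level was 35637 to 38184 CPM in DOX against 61268 to 69445 in V. Of 7 endothelial markers 2 fell and none rose, of 6 macrophage markers 1 rose and 1 fell, of 4 erythroid markers 1 fell, 0 of 6 fibroblast and 0 of 4 neutrophil markers passed edgeR's test (0 and 2 at an unadjusted p under 0.05), and the neutrophil sum was 125 to 229 CPM in DOX and 20.2 to 63.9 in V. In tissue RNA, fewer cells of a type and less RNA per cell cannot be told apart. The part of cell composition in the members' change was not tested.

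The lists of pathway genes did not move as one. Of 35 ERR and PGC-1 targets of oxidative metabolism, 24 fell and none rose at 16 h (median -0.25, against 0.02 for all genes). Those with the smallest p were Slc25a4, the adenine nucleotide carrier (-0.43 ± 0.07), Idh3a, a subunit of isocitrate dehydrogenase (-0.56 ± 0.10), Cyc1 of complex III (-0.34 ± 0.06) and Sdhd of complex II (-0.51 ± 0.09). With library size alone the median was -0.06, with 7 of the 35 lower, and without DOX replicate 3 the count was 15. Of 13 mRNAs of the mitochondrial genome 6 fell (median -0.29), led by mt-Co2 (-0.65 ± 0.17), and 1 fell without DOX replicate 3. Its median was -0.091 with library size alone, with 2 lower by the test and 4 of the 13 values positive.

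PPAR-alpha targets went both ways. Of 32, 7 fell and 3 rose (median -0.11, or 0.08 with library size alone, where 4 fell and 6 rose). The carnitine palmitoyltransferase gene Cpt1b (-0.86 ± 0.15), the fatty acid binding protein gene Fabp3 (-0.65 ± 0.11) and the lipid droplet protein gene Plin5 (-1.73 ± 0.33) fell. The count of falls was 11 without H replicate 1 and 4 without V replicate 3 or DOX replicate 3.

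Partners, corepressors and upstream regulators as a group stayed near 0: of 32, 4 rose and 3 fell (median 0.03, or 0.23 with library size alone, where 10 rose and 1 fell). The zinc finger factor gene Yy1 (0.39 ± 0.10) and the forkhead factor gene Foxo1 (0.58 ± 0.17) rose. The retinoid X receptor gene Rxrg, a dimer partner of PPAR-alpha (-0.57 ± 0.15), and the thyroid hormone receptor gene Thra (-0.52 ± 0.15) fell. Without V replicate 1 or DOX replicate 1 none of them fell by the test, and without V replicate 3 or DOX replicate 2 none rose. Of 14 genes of mitochondrial DNA maintenance and transcription 1 fell, Lrpprc, which encodes a stabiliser of mitochondrial mRNA (-0.64 ± 0.12), and 1 rose, the DNA polymerase gene Polg (0.30 ± 0.10), a call lost when 1 of 7 of the 12 libraries was left out.

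At 72 h the same comparison shows the regulators 3 days after the drug. All 9 members fell, and 53.7% of the 7703 genes tested changed, with 27.2% lower. The groups overlapped for none of the 9, against no overlap in 63.5% of all genes. The median change was -0.60 for the members and 0.01 for all genes. With library size alone, a scaling added after seeing the data, 4 members fell (Ppargc1b, Perm1, Esrrg and Ppara), and Esrra and Gabpa turned to 0.055 and 0.10. That scaling moved the median of all genes to 0.42 at 72 h and 0.22 at 16 h, and the share of calls that were higher from 49.3% to 87.5% at 72 h and from 48.4% to 79.9% at 16 h. All members lay below these medians, and at 16 h 4 fell (Perm1, Esrrb, Esrrg and Ppara).

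Ppara and Ppargc1b fell most. Ppara went from 30.3, 25.9 and 28.1 CPM in V to 11.4, 10.2 and 10.0 in DOX, which is -1.42 ± 0.10 on the log2 scale (edgeR adjusted p = 2.28e-05). Ppargc1b went from 16.2, 11.5 and 13.7 to 3.83, 5.27 and 6.69 CPM, or -1.39 ± 0.23 (edgeR adjusted p = 0.000928). The DOX means stood at 37.5% of V for Ppara and 38.2% for Ppargc1b.

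Perm1 and Esrrg stood at 45.1% and 51.2% of V. Perm1 read 251, 228 and 226 CPM in V and 81.7, 130 and 106 in DOX, with the DOX libraries further apart than those of V (-1.15 ± 0.15, edgeR adjusted p = 0.00044). Esrrg read 37.5, 34.4 and 36.0 CPM in V and 17.4, 19.4 and 18.4 in DOX, with little spread in either group (-0.97 ± 0.08, edgeR adjusted p = 4.33e-05).

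The other members changed by less. Ppargc1a read 115, 110 and 102 CPM in V and 72.1, 88.2 and 66.7 in DOX (-0.53 ± 0.11, edgeR adjusted p = 0.00337). Esrrb read 24.3, 21.7 and 21.5 in V and 14.0, 17.03 and 13.4 in DOX (-0.60 ± 0.11, edgeR adjusted p = 0.00167). For both, the lowest V library lay above the highest DOX library. Tfam read 32.4, 32.1 and 31.5 CPM in V and 21.3, 21.4 and 26.1 in DOX (-0.48 ± 0.10, edgeR adjusted p = 0.00296). Esrra read 105, 99.3 and 91.7 in V and 76.1, 77.5 and 77.2 in DOX (-0.36 ± 0.08, edgeR adjusted p = 0.00424). Gabpa read 48.3, 47.2 and 49.6 in V and 40.9, 38.8 and 36.9 in DOX (-0.32 ± 0.07, edgeR adjusted p = 0.00536). Gabpa was again the member nearest to no change, and all 9 stayed called whichever of the 6 libraries was left out.

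**Figure D2:**
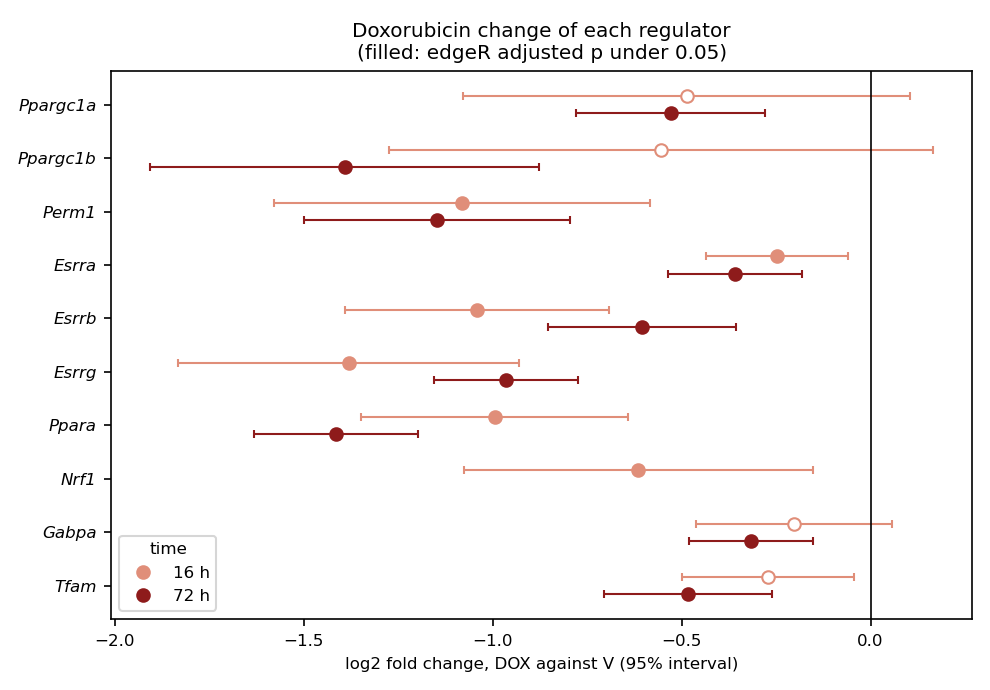
Log2 fold change of each gene, DOX against V (x axis), with 95% intervals, at 16 h (light) and 72 h (dark); filled points passed the edgeR test. All points lie left of 0, from -1.42 to -0.20; with library size alone, Esrra and Gabpa at 72 h lie right of it, at 0.055 and 0.10.

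Markers of other cells moved at 72 h as well. Of 10 cardiomyocyte markers 9 fell (median -1.23), with a summed level of 21727 to 26336 CPM in DOX against 52312 to 59271 in V. All 3 neutrophil markers found rose, from a sum of 0.957 to 1.98 CPM in V to 26.4 to 133 in DOX, 4 of 7 endothelial markers rose and 1 fell, and 2 of 5 fibroblast and 2 of 5 macrophage markers rose, while 1 of the latter fell. All 4 erythroid markers fell (median -6.53). Their part in the members' change was not tested.

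The pathway lists differed in direction at 72 h. Of the 35 ERR and PGC-1 targets 29 fell and none rose (median -0.57). The smallest p belonged to Idh3a (-1.02 ± 0.08), citrate synthase, Cs (-1.15 ± 0.10), Uqcrc1 of complex III (-0.96 ± 0.08) and Dlst of the oxoglutarate dehydrogenase complex (-1.03 ± 0.09). With library size alone the median was -0.15, with 13 lower and 5 higher. Of the 13 mitochondrial mRNAs 12 fell (median -0.81, or -0.39 with library size alone), such as mt-Nd4l (-0.89 ± 0.09) and mt-Atp8 (-0.97 ± 0.10). Of 11 genes of mitochondrial DNA maintenance and transcription 7 fell, among them Lrpprc (-0.997 ± 0.102), the helicase gene Twnk (-0.46 ± 0.09), the exonuclease gene Mgme1 (-0.60 ± 0.13) and the elongation factor gene Tefm (-0.51 ± 0.12). Their median of -0.24 was 0.17 with library size alone, where 1 fell and 4 rose, and 4 fell without V replicate 1 or V replicate 2.

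Of the 32 PPAR-alpha targets, 14 rose and 7 fell. The median was 0.07, or 0.48 with library size alone, where 22 rose and 2 fell. Ucp2, which encodes a mitochondrial carrier, rose (1.75 ± 0.13), while the beta-oxidation enzyme gene Hadh (-0.85 ± 0.09) and the acyl-CoA synthetase gene Acsl1 (-0.85 ± 0.09) fell. Without V replicate 1, V replicate 3, DOX replicate 1 or DOX replicate 2, 4 fell. Of 30 partners and upstream regulators 11 fell and 4 rose (median -0.04, or 0.37 with library size alone). The falls include Rxrg (-0.86 ± 0.08), the myocyte enhancer factor gene Mef2c (-0.62 ± 0.08), the AMP-activated kinase gene Prkaa2 (-0.93 ± 0.13) and the steroid receptor coactivator gene Ncoa1 (-0.49 ± 0.09). With library size alone 3 fell and 17 rose, and without V replicate 3 or DOX replicate 1 the TMM-scaled count of rises was 1.

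**Figure D3:**
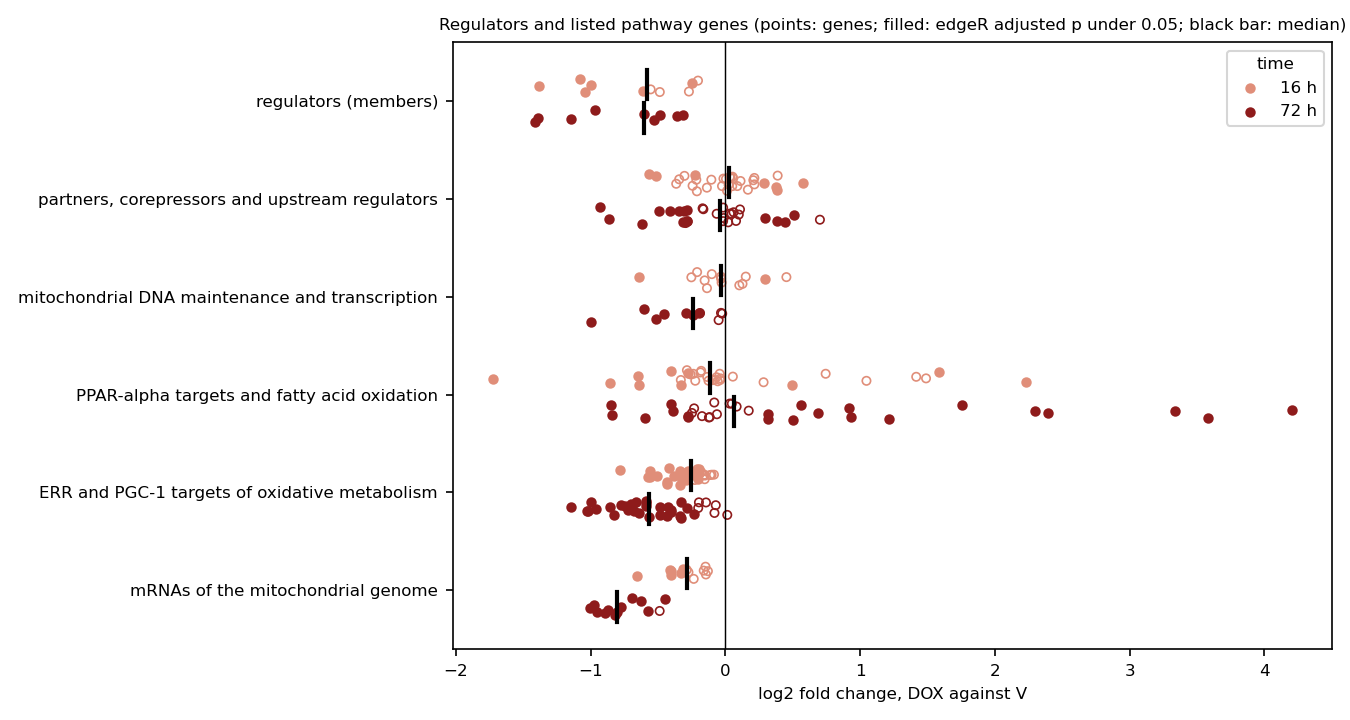
Log2 fold change of the regulators and of 5 lists of pathway genes, DOX against V (x axis), at 16 h (light) and 72 h (dark); each point is a gene, filled where it passed the edgeR test, and black bars are medians. The medians of the regulators are -0.58 and -0.60 and those of the ERR and PGC-1 targets -0.25 and -0.57, while PPAR-alpha targets spread from -1.73 to 4.20; library size alone moves the median of the PPAR-alpha targets at 16 h to 0.08 and that of the mitochondrial DNA list at 72 h to 0.17.

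The difference between the times was tested itself, over the 7407 genes in both tables. It was past the threshold for 26.5% of these genes and for 0 of the 9 members by edgeR (0 also at an unadjusted p under 0.05). EdgeR with only the groups compared called Esrrg (0.39, adjusted p = 0.02) and Ppara (-0.44, adjusted p = 0.0203). The total over all genes for that fit is not given here, so these 2 calls cannot be set beside a share of all genes. Voom called 2 members, with 3064 genes in all. Among the members the extremes were Ppargc1b, at -0.85 ± 0.44 (edgeR adjusted p = 0.165; 95% interval -1.78 to 0.09), and Esrrb, at 0.43 ± 0.21 (edgeR adjusted p = 0.139; -0.02 to 0.87). Ppara differed by -0.43 ± 0.21 (edgeR adjusted p = 0.133), and its call was gained without DOXH replicate 3. For 7 of the 9 members the change was lower at 72 h than at 16 h, and for Esrrb and Esrrg it was higher. With library size alone, Ppargc1a, Perm1, Esrra and Gabpa turned positive, at 0.13, 0.11, 0.063 and 0.063. Of the ERR and PGC-1 targets 17 were lower and 1 was higher at 72 h, and of the PPAR-alpha targets 7 were higher and 1 was lower. These counts were, with library size alone, 10 lower and 5 higher, and 13 higher and 1 lower.

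Hesperitin alone against vehicle asks whether the flavanone changes the regulators in hearts without the drug. None of the 10 members passed edgeR's test (0 at an unadjusted p under 0.05, 0 with DESeq2 and 0 with voom). Across all genes 0% passed, with 664 at an unadjusted p under 0.05, 13 by DESeq2 and 16 by voom. The H libraries were the deeper ones at 16 h, which was not tested as a cause of any difference.

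The widest difference was that of Ppargc1b, which read 9.99, 15.9 and 12.9 CPM in H and 9.64, 9.97 and 7.64 in V (0.51 ± 0.31, edgeR adjusted p = 0.856; 95% interval -0.17 to 1.18). The lowest H library lay barely above the highest V library. Tfam read 33.2, 33.8 and 34.8 CPM in H, above all V libraries (0.19 ± 0.10, edgeR adjusted p = 0.809), and Esrra read 87.5, 92.1 and 93.8, below all V libraries (-0.08 ± 0.09). For these 3 of 10 members the groups did not overlap, against 15.6% of all genes. Ppargc1a read 87.1, 158 and 154 CPM in H, where replicate 1 lay below every V library and the others above (0.04 ± 0.27). The other 6 members lay between -0.17 (Ppara) and 0.14 (Esrrg). Of the 35 ERR and PGC-1 targets and the 32 PPAR-alpha targets 0 passed edgeR's test (2 and 1 at an unadjusted p under 0.05), and 0 passed by DESeq2 or voom.

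Hesperitin with doxorubicin against doxorubicin alone asks whether the flavanone alters the response to the drug. All 10 members were on average higher in DOXH than in DOX, with a median of 0.37 against -0.01 for all genes, and Gabpa turned to -0.010 with library size alone. None passed edgeR's test (3 at an unadjusted p under 0.05, 2 with DESeq2 and 2 with voom). The cardiomyocyte markers were also all 10 higher in DOXH (median 0.49, 9 at an unadjusted p under 0.05). Of the 5 mural cell markers 3 were lower and 2 higher (median -0.95, 4 at an unadjusted p under 0.05). The mural sums overlapped, at 716 to 817 CPM in DOXH and 745 to 823 in DOX. None of either list passed edgeR's test. DESeq2 called 4 of the cardiomyocyte markers higher and voom 6. Their part in the members' difference was not tested. Across all genes 0% passed (1958 at an unadjusted p under 0.05, 390 by DESeq2 and 1329 by voom).

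Esrrg and Esrrb were furthest apart, and Esrra, at 0.16 ± 0.09 (edgeR adjusted p = 0.33), was the second nearest to no change after Gabpa. Esrrg read 37.9, 24.5 and 50.9 CPM in DOXH, above the 17.96 to 21.4 of DOX (0.98 ± 0.21, edgeR adjusted p = 0.13; 95% interval 0.53 to 1.43). Esrrb read 23.2, 16.0 and 24.8 CPM in DOXH, above the 13.0 to 14.3 of DOX (0.67 ± 0.16, edgeR adjusted p = 0.13). DESeq2 called both, at an adjusted p of 0.00157 for Esrrg and 0.0125 for Esrrb, and so did voom, at 0.00909 and 0.0128. For these 2 of 10 members the groups did not overlap, against 18.8% of all genes, and for the other 8 they did. Ppara read 25.3, 20.8 and 34.9 CPM in DOXH (0.38 ± 0.16, edgeR adjusted p = 0.241), Perm1 164, 131 and 279 (0.47 ± 0.23, edgeR adjusted p = 0.293), and Ppargc1a 113, 80.1 and 163 (0.36 ± 0.27, edgeR adjusted p = 0.482).

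The ERR and PGC-1 targets lay on the same side as the receptors. All 35 were on average higher in DOXH than in DOX (median 0.24, or 33 of 35 and 0.083 with library size alone). None passed edgeR's test, with 32 at an unadjusted p under 0.05, 19 called higher by DESeq2, 23 by voom and 16 by edgeR without DOXH replicate 2. Their summed level was 33560 to 35326 CPM in DOXH, 27813 to 29911 in DOX and 34003 to 36164 in V. Of the 32 PPAR-alpha targets 25 were higher (median 0.18), and none passed edgeR's test, while DESeq2 called 2 higher and voom 4 higher and 1 lower.

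The 3 DOXH libraries lay far apart, and in the same order for every member: replicate 2 lowest, replicate 1 between and replicate 3 highest in 10 of 10. Over all genes 27.0% had that order and 26.1% the reverse. Replicate 3 lay at or above the lowest V library for 6 members. It was within the range of V for Esrrg and above every V library for Ppargc1a, Ppargc1b, Nrf1, Gabpa and Tfam. Replicate 2 lay at or below the highest DOX library for 8, and replicate 1 lay between the groups for 9. Nrf1, for example, read 7.27 CPM in replicate 1, 4.61 in replicate 2, under every DOX library, and 9.96 in replicate 3, above every V library. The summed cardiomyocyte markers followed the same order, at 46133, 42878 and 65273 CPM in replicates 1, 2 and 3. Their part in the order was not tested. Without replicate 2, 5 members were called higher in DOXH than in DOX (Perm1, Esrrb, Esrrg, Ppara and Nrf1) and 1554 genes in all.

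**Figure D4:**
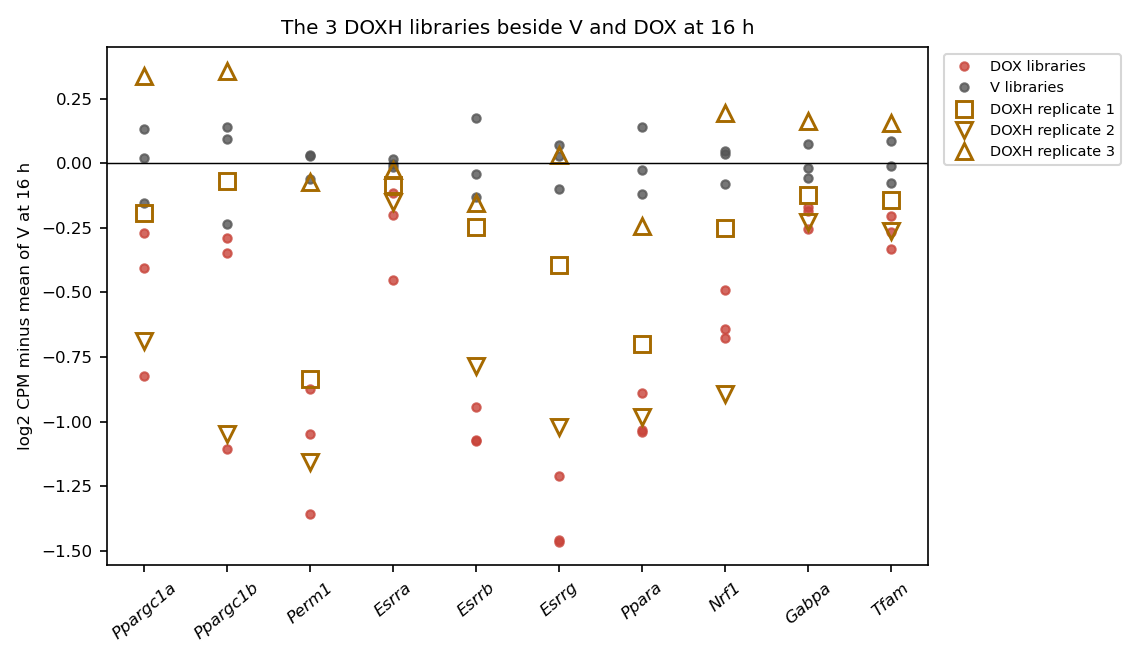
Log2 CPM of each gene minus its mean in V (y axis) in the 3 DOXH libraries (open symbols) and in the V and DOX libraries (points) at 16 h. For each of the 10 genes DOXH replicate 2 is the lowest and DOXH replicate 3 the highest of the 3; Esrrg spans -1.02 to 0.03.

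Against V, the DOXH hearts were on average lower for all 10 members (median -0.20), and none passed edgeR's test (3 at an unadjusted p under 0.05, 1 with DESeq2 and 3 with voom). Across all genes 0% passed (1749 at an unadjusted p under 0.05, 131 by DESeq2 and 2118 by voom). Perm1 and Ppara were furthest from V, at -0.61 ± 0.23 (edgeR adjusted p = 0.248) and -0.61 ± 0.16 (edgeR adjusted p = 0.2). For 4 members, Perm1, Esrra, Esrrb and Ppara, the groups did not overlap, against 19.2% of all genes. Without DOXH replicate 3, Perm1, Esrrg and Ppara were called lower than V, and 1674 genes were called in all. Without DOXH replicate 2, Ppargc1a, Ppargc1b, Gabpa and Tfam turned positive, at 0.095, 0.15, 0.030 and 0.014. This comparison shares its V libraries, and the previous one its DOX libraries, with the doxorubicin comparison.

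The interaction tests whether the doxorubicin change differs with hesperitin. None of the members passed edgeR's test (3 at an unadjusted p under 0.05, 0 with DESeq2 and 2 with voom), nor did any gene, 0% (1228 at an unadjusted p under 0.05, 53 by DESeq2 and 236 by voom). The values were 0.84 ± 0.28 for Esrrg (edgeR adjusted p = 0.366; 95% interval 0.21 to 1.46), 0.80 ± 0.22 for Esrrb (edgeR adjusted p = 0.334; 0.31 to 1.28) and 0.55 ± 0.23 for Ppara (edgeR adjusted p = 0.394; 0.06 to 1.05). The other 7 lay between -0.10 (Ppargc1b) and 0.42 (Perm1). Without DOXH replicate 2, Esrrb and Esrrg were called, at 0.96 and 1.07, with 254 genes in all.

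Genes with the most similar pattern over the 12 libraries of 16 h were found by the root mean square difference between 2 genes, each as log2 CPM minus its own V mean. For Ppargc1a the nearest was Paqr9 (0.10, where Ppargc1a itself had a root mean square of 0.41), and for Perm1 it was Il10rb (0.09, beside 0.70). Ppara was nearest to Jph2, the junctophilin gene of the cardiomyocyte dyad (0.07, beside 0.62), and to the phosphofructokinase gene Pfkl (0.08). Esrrg was nearest to Slc25a13, which encodes a mitochondrial aspartate and glutamate carrier (0.13, beside 0.77), and Esrrb to Fto (0.13, beside 0.58). Tfam and Gabpa, with changes of 0.20 and 0.16 by the same measure, had Hspa4l and Rbfa nearest, at 0.07 each.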

How the data were processed

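Values are expected counts as the authors deposited them, estimated by RSEM and not always whole, in a table per time. Per the submitters' processing notes, RSEM, DESeq2 and the build GRCm38 (mm10) were used. No source used here gives versions, annotation or strand setting. Per the labels' protocols the RNA was poly(A)-selected, and all labels name 1 batch.

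Of the columns for 72 h, 6 match no label and stayed out, which left 6 libraries for a fit planned with more. A further DOX column carries a number absent from the labels and served as an unnumbered replicate. For the levels and the tests within a time each table was scaled on its own, so levels are not compared between times. The test of the difference between times scaled the 18 libraries together, over the 7407 genes in both tables. The 15 rows of 72 h that have an identifier but no symbol counted as genes.

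Counts were rounded, scaled by TMM and passed through filterByExpr, which kept 10393 genes at 16 h and 7703 at 72 h. Robust quasi-likelihood fits in edgeR 4.0.16 (R 4.3.3) on group means used 12, 6 or 18 libraries, with 8, 4 or 12 residual degrees of freedom. The SE is the absolute log2 fold change divided by the square root of F, and log2 CPM used a prior count of 2. Precision is set by depth, 9255651 to 20587578 counts, and by 3 libraries a group, and no 2 libraries were alike within sampling noise. Gene positions are those of GENCODE for GRCm38.

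The members and lists were chosen with earlier results of these data known. Named are all 10 members, at most 4 genes per list (smallest p; some are not reported here) and the genes most like a member. Alternatives were RLE or upper quartile factors, no low-count filter, a 5 CPM mean, DESeq2 1.42.0, voom with sample quality weights (limma 3.58.1), the replicate block, fits of the compared groups alone and leaving out each library. Library size alone was chosen after seeing the data. Scripts were tested on simulated data, in which 200 genes were changed and each library was drawn independently. In the real data 32.3% of genes changed for DOX against V at 16 h, and the DOXH libraries kept the same order for every member. Recovery in the real data may therefore differ from the values that follow. Of simulated 1.5-fold changes at 16 h, 35.8% were recovered for DOX against V, 44.8% for DOXH against DOX and 4.48% for the interaction. Of 2-fold changes these were 80.6%, 80.6% and 53.7%. Where none passed, changes of these sizes may thus have been missed.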

Additional observations from a re-analysis of the deposited data

Results flagged for a closer look

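Pathway genes whose doxorubicin change differed between 72 h and 16 h by edgeR's test of the difference are given here as the change at 72 h minus that at 16 h (log2). Of 32 PPAR-alpha targets 7 were higher by this measure, 1 was lower and 24 did not pass. Among the higher were Plin5 by 2.22, which had fallen at 16 h, Plin2 by 1.79 and the fatty acid carrier gene Cd36 by 0.98. Among partners, Thra differed by 0.89, and Prkaa2 (-0.72), Ncoa2 (-0.58) and the acetyltransferase gene Ep300 (-0.50) were lower. In mitochondrial DNA maintenance, Mgme1 (-0.58) and Twnk (-0.43) were lower. Lower too were the ERR and PGC-1 targets Cs (-0.86), Uqcrc1 (-0.65), Sucla2 (-0.60) and Ndufs1 (-0.54), and the mitochondrial mRNAs mt-Nd2 (-0.78), mt-Nd1 (-0.73), mt-Nd5 (-0.69) and mt-Nd4l (-0.59). None of the 9 members measured at both times differed by this test in the fit of all 18 libraries.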

How the results depend on the processing

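All members kept the direction of the doxorubicin change at both times in every alternative, except Esrra (0.055) and Gabpa (0.10) at 72 h with library size alone, where 4 members were called. By voom 5161 genes changed with doxorubicin at 16 h and 3064 between the times. For H against V, DESeq2 called 13 genes and voom 16. For DOXH against DOX these tools called 390 and 1329 genes, with 2 members each, for DOXH against V 131 and 2118 genes, with 1 and 3 members, and for the interaction 53 and 236 genes, the latter with 2 members. With only the groups compared, 1 gene was called for DOXH against DOX and 1 for DOXH against V. For the difference between times, 2 members were called by voom, 2 with only the groups compared (total over all genes not given here) and 1 with library size alone. With that scaling 1734 genes were higher and 477 lower between the times.

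With 1 library left out, genes changed ranged from 1928 to 4031 (DOX at 16 h; 1928 without V replicate 1, 2021 without V replicate 3, 2230 without DOX replicate 1), 0 to 47 (H against V; 47 without H replicate 1), 0 to 1554 (DOXH against DOX), 0 to 1674 (DOXH against V) and 0 to 254 (interaction; 29 without H replicate 1). Members called ranged from 0 to 5, 0 to 3 and 0 to 2 in the last 3, from 4 to 7 for DOX at 16 h and from 0 to 1 between the times. Genes changed between the times ranged from 1495 to 2317.

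Values near 0 changed sign. With library size alone these were Gabpa in DOXH against DOX (-0.010), Gabpa (-0.023) and Tfam (-0.16) in the interaction, and Ppargc1a (0.13), Perm1 (0.11), Esrra (0.063) and Gabpa (0.063) between the times. Tfam in the interaction was -0.0082 with upper quartile factors and -0.083 by voom. With 1 library left out, H against V spanned -0.10 to 0.27 for Ppargc1a, -0.031 to 0.11 for Perm1 and -0.081 to 0.12 for Gabpa. DOXH against V spanned -0.42 to 0.095 for Ppargc1a, -0.49 to 0.15 for Ppargc1b, -0.17 to 0.030 for Gabpa and -0.20 to 0.014 for Tfam. The interaction spanned -0.44 to 0.20 for Ppargc1b and -0.12 to 0.089 for Tfam, and the difference between times -0.21 to 0.058 for Ppargc1a (0.020 and 0.018 between) and -0.26 to 0.069 for Perm1 (0.032 between). The cause of these changes was not tested.

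At 16 h same-numbered libraries of different groups correlated at -0.415 to 0.250 in their deviations from the group means, and differently numbered ones at -0.427 to 0.526. At 72 h the 2 same-numbered pairs gave 0.169 and 0.208, and the differently numbered ones -0.196 to 0.070. Deviations within a group of 3 sum to 0, so these values cannot settle whether the numbers pair the samples. With the replicate block, 3064 genes and 4 members were called for DOX at 16 h (Esrra and Nrf1 lost), 3818 genes and 9 members at 72 h, and 1214 genes and 0 members between the times. Depth limits precision most for Ppargc1b (40 to 277 counts per library) and Nrf1 (43 to 165).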
